A study of Homo sapiens with 105 samples.

Results

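The genes of the cornified envelope and of late epithelial differentiation were followed in vaginal epithelial cells treated with pro-inflammatory and non-inflammatory compounds. The set has 41 genes, out of 21357 gene symbols that the array annotation names. The rule takes genes by name and sets no limit on a measured value. Each gene was read from its brightest probeset, and 37 of the 41 had one. No probeset was listed in the annotation used here for SPRR2A, SPRR2D, LCE3E and KPRP.

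RNA was measured on Affymetrix U133 Plus 2.0 arrays in Vk2/E6E7 cells, 1 human vaginal epithelial line immortalised with papillomavirus oncogenes, after 6 h. Growth medium alone (GM) was the control, with 53 arrays used. The pro-inflammatory compounds (PICs) were the cytokine TNF-α at 40 ng/ml (5 arrays used), the lipopeptides Pam3CSK4 at 10 µg/ml (6 arrays) and MALP2 at 200 ng/ml (6 arrays), imiquimod (6 arrays) and the detergent nonoxynol-9 (N-9) at 12.5 µg/ml (9 arrays). The non-inflammatory compounds (NICs) were the gels hydroxyethylcellulose (HEC) and carboxymethylcellulose (CMC), each at 1 mg/ml and on 9 arrays. The labels give imiquimod at 30 mg/ml, whereas the study's methods give the same figure in µg/ml.

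The cornified envelope is a shell of cross-linked protein that replaces the plasma membrane when a squamous epithelial cell matures. Transglutaminases join involucrin, loricrin, small proline-rich proteins and late cornified envelope proteins to plakins and desmosomes, while filaggrin-type proteins pack the keratins and lipid enzymes seal the surface. The wet stratified epithelium of the vagina expresses part of this program as its cells move from the basal layer to the surface.

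In all 8 groups the cells carried the markers of squamous epithelium. In GM the log2 signal was 14.46 ± 0.12 for KRT5 and 14.71 ± 0.12 for KRT14 (SD, n = 53), and 6 of the 8 markers listed had a probeset, with KRT13 at 9.66 ± 1.53. The 4 leukocyte markers measured lay between 4.31 (PTPRC) and 7.04 (CD14), and the 3 melanocyte markers between 5.62 (MLANA) and 6.63 (TYR). Of the 6 stromal markers COL1A1 was the highest, at 10.83 ± 0.88, and VWF the lowest, at 4.46. GM replicate 52 correlated with no other array above r = 0.0484 (other pairs reached at least 0.835), and TNF-α replicate 6 differed from the mean of replicates 1 to 3 by at most 7.67e-09, so both were left out. The labels call the arrays biological replicates and do not say that they came from separate cultures. What the p-values measure is thus the scatter of these arrays, part of which may be technical, and the number of arrays limits the precision.

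The arrays of 3 consecutive replicate numbers in a group resembled each other and are called a run here, a name taken from the values and not from the labels. Over all probesets the deviations from the group mean had a median correlation of 0.231 within runs and of -0.0568 between runs of a group. The envelope genes followed the runs more closely than most probesets did. The median share of their variance in GM that lay between runs was 91.3%, against 57.4% for all 54613 probesets tested. Without GM replicates 43 to 45 the shares were 78.4% and 57.0%. The median SD over the GM arrays was 1.39 for the 37 genes and 0.66 for all probesets on the log2 scale.

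One run of untreated cells stood apart. In GM replicates 43 to 45 all 37 genes had the highest mean of the 18 GM runs, whereas 6.31% of all probesets had theirs there. The 37 genes lay a median of 3.27 above their GM mean in that run, while the median of all probesets lay at 0.00. Loricrin (LOR), the main protein of the epidermal envelope, had signals of 13.45, 13.28 and 13.31 on these 3 arrays, against a GM median of 4.91. The other 17 GM runs had LOR means between 3.21 and 8.55, so the 3 arrays were above every other untreated array.

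A similar split ran through 4 of the PIC groups. In replicates 4 to 6 of Pam3CSK4 and imiquimod all 37 genes lay above the GM mean, and so did 35 of 37 in replicates 4 to 6 of MALP2. The same held for 37 of 37 in TNF-α replicates 4 and 5. In replicates 1 to 3 fewer did, from 14 (TNF-α) and 16 (imiquimod) to 19 (MALP2) and 27 (Pam3CSK4). The median difference from the GM mean was 0.44 in the first and 3.58 in the second run of Pam3CSK4. It was 0.05 and 1.74 in the runs of MALP2, -0.02 and 2.98 in those of imiquimod, and -0.21 and 2.18 in those of TNF-α.

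GM replicates 43 to 45 were nevertheless above most of these second runs. Of the 37 genes, 5 were higher in the second run of Pam3CSK4 than in GM replicates 43 to 45, 5 in that of MALP2, 4 in that of imiquimod and 0 in that of TNF-α. The labels do not say which GM arrays were handled with which treated arrays, and what sets these runs apart was not tested. The mean of the 6 squamous markers was 13.80 in GM replicates 43 to 45 and between 13.42 and 13.68 in the second runs of the 4 PICs, against a GM median of 12.97. It was 13.76 in GM run 14, 13.63 in GM run 12 and 13.71 in the third CMC run, where the median differences of the 37 genes from their GM mean were 0.34, -0.01 and 0.47. In that CMC run 29 of the 37 lay above the GM mean, IVL by 2.68 and LOR by 2.35. For RNA quality, the 3′ probeset of ACTB was compared with its 5′ probeset, and their log2 difference was 0.42 in GM replicates 43 to 45 and 0.44 ± 0.24 (SD, n = 53) over GM. It was 1.34 in the first run of imiquimod and 0.58 in the second.

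**Figure D1:**
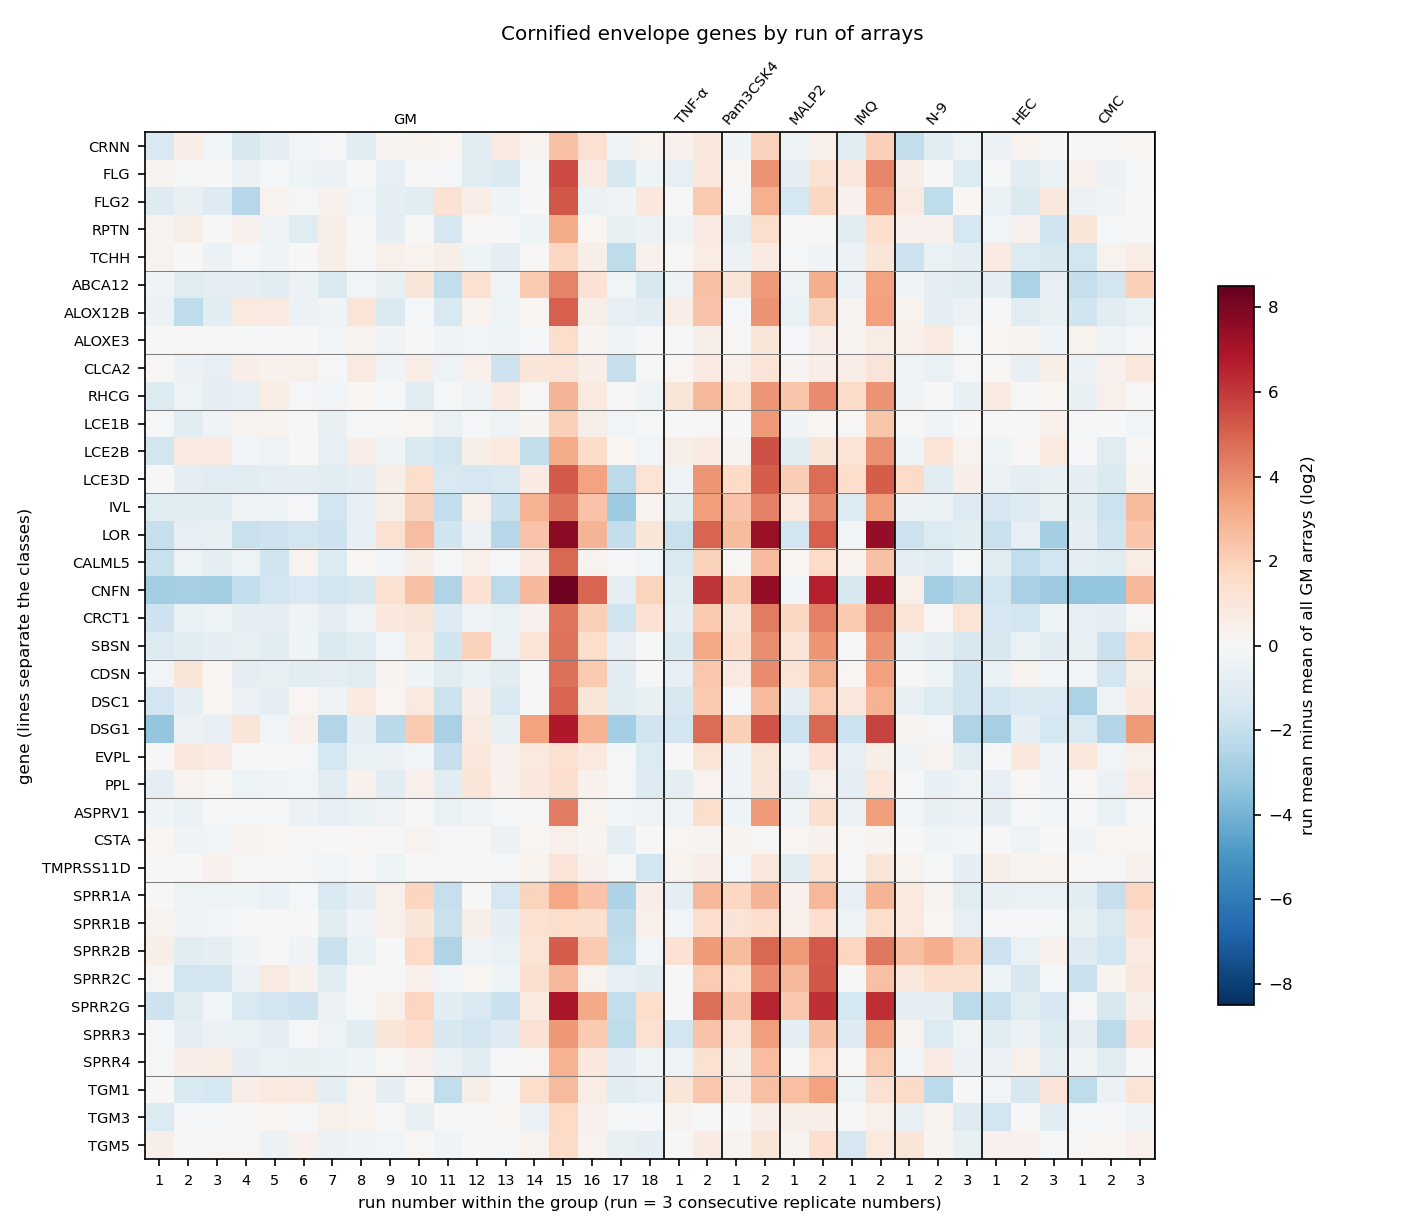
Each column is the mean of 1 run of arrays and each row 1 of the 37 genes, with colour for the run mean minus the mean of all GM arrays (log2 scale) and lines between the classes of genes. GM run 15 (replicates 43 to 45) is high for all 37 genes, and the second runs of TNF-α, Pam3CSK4, MALP2 and imiquimod are high for most, while few genes are high in the N-9 and HEC runs.

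Many of the genes are neighbours in the genome. By the RefSeq annotation of GRCh38.p14, 22 of the 41 lie together on chromosome 1, each within 1 Mb of the next, in the region known as the epidermal differentiation complex. Of the 18 in this region with a probeset, 15 were called in at least 1 treatment, that is they had an adjusted p under 0.05 and a fold above 2. Of the 19 elsewhere 7 were called, and of all probesets 8.8% were.

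The promoters of 4 genes of this region are printed because these genes were among those with the largest changes. Each is the 250 bases before the start, 5′ to 3′ on the strand of the gene, from the RefSeq promoter table of GRCh38.p14. Capitals mark matches, on either strand, to an AP-1 motif (TGANTCA), an octamer (ATGCAAAT), a kappaB motif (GGG and TTCC parted by 3 bases of any kind) or a TATA box (TATAAA). An interferon-stimulated response element was searched for as well.
SPRR2B, chr1:153071612-153071861, minus strand: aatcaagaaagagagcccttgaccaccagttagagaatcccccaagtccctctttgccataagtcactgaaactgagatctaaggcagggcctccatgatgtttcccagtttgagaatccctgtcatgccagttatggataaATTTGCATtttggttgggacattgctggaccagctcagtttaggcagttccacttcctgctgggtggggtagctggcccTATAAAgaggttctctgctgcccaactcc
SPRR2G, chr1:153150891-153151140, minus strand: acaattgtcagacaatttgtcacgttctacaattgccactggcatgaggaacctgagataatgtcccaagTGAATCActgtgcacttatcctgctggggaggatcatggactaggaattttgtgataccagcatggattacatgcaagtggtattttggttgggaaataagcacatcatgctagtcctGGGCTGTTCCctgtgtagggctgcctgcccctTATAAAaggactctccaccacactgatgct
IVL, chr1:152908296-152908545, plus strand: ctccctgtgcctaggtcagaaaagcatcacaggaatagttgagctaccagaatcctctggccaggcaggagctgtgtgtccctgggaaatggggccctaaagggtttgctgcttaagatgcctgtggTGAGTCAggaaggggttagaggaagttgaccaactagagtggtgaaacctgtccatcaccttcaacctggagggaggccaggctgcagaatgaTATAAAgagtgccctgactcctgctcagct
LORICRIN (LOR), chr1:153259437-153259686, plus strand: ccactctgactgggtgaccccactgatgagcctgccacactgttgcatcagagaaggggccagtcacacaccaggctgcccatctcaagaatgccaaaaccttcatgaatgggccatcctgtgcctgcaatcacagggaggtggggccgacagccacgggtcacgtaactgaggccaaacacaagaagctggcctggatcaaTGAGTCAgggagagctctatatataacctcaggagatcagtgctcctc

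Of the 37 genes, 29 matched the promoter table by symbol. The AP-1 motif, which is bound by Fos and Jun proteins, was in 14 of the 29 windows (48.3%), against 6.57% of all 35116 windows of the same length. Counted from the start, it stood at -123 to -117 in IVL, -48 to -42 in LOR and -180 to -174 in SPRR2G. A TATA box was in 13 of the 29 (44.8%, against 10.7% of all). The kappaB motif was in 2 (6.9%, against 5.67%), the octamer in SPRR2B alone (3.45%, against 1.63%), and the interferon element in 0 (against 3.02%). A match is only a run of letters in the window, and nothing about a factor follows from it or from its lack.

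Pam3CSK4, a synthetic triacylated lipopeptide recognised by TLR2 with TLR1, raised more envelope genes than the other treatments did when all arrays were used. With replicates 4 to 6 alone imiquimod raised 24 and Pam3CSK4 23, and with replicates 1 to 3 alone or with averaged runs MALP2 raised more. Of the 37, 17 rose and 0 fell at an adjusted p under 0.05 (limma, all probesets), each also by more than 2-fold, against 1.31% of all probesets higher and 0.859% lower. The median log2 difference from GM was 1.82 for the 37 genes, all of them positive, and -0.02 for all probesets. The differences were larger in the second run, although 27 of the 37 genes lay above the GM mean in the first and SPRR2B, SPRR2C and RHCG were above 17 of the 18 GM runs there. With replicates 1 to 3 alone 0 genes passed (0.74% of all probesets higher), with replicates 4 to 6 alone 23 did (0.855%), and with the runs averaged and used as the samples 0 did (0.0439%). With the runs as a random block 9 passed (0.419%). The block applies 1 correlation of 0.438 to every probeset, while a median 91.3% of the variance of these genes in GM lay between runs. That share was 78.4% without GM replicates 43 to 45. The block may therefore correct too little for these genes. Without GM replicates 43 to 45, 25 genes passed (1.67%). These 3 arrays were left out after the values were seen. All 37 genes were highest there among the GM runs, so leaving them out lowers each GM mean and favours a rise. Leaving out Pam3CSK4 replicate 4, 5 or 6 left 11, 9 and 9 genes, with no share of all probesets given.

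MALP2, a diacylated lipopeptide of mycoplasma recognised by TLR2 with TLR6, raised 10 of the 37 and lowered 0, against 3.28% of all probesets higher and 3.68% lower. The median was 0.83 for the 37 and -0.01 for all probesets. Here 4 genes passed with replicates 1 to 3 alone (2.32% of all probesets), namely SPRR2B, SPRR2C, RHCG and TGM1. These were also the 4 genes whose 6 MALP2 arrays all lay above every GM array other than replicates 43 to 45 (0.39% of all probesets). With those replicates included, 0 genes had all arrays of any treatment above every GM array. SPRR2C and RHCG passed with the runs as the samples (0.302%), and 19 genes passed with replicates 4 to 6 alone (2.58%). The run block kept 8 (1.73%), and 14 passed without GM replicates 43 to 45 (3.46%). With Pam3CSK4, SPRR2B alone had all arrays above those GM arrays (0.139%).

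Imiquimod, an imidazoquinoline that activates TLR7, raised 12 of the 37 and lowered 0, against 4.68% of all probesets higher and 6.19% lower. The median was 1.28 for the 37 and 0.00 for all probesets. With replicates 1 to 3 alone 0 genes were higher (4.72% of all probesets) and 1, TGM5, was lower (6.84%), whereas 24 were higher with replicates 4 to 6 alone (2.77%). The run block kept 6 (2.44%), and RHCG alone passed with the runs as the samples (0.546%). Leaving out imiquimod replicate 4, 5 or 6 left 6 genes each, with no share of all probesets given. Leaving out GM replicates 43 to 45 gave 19 (5.04%).

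N-9 raised SPRR2B and SPRR2C and lowered CRNN and TCHH, that is 2 of 37 in each direction, against 7.34% of all probesets higher and 10.1% lower. Both shares of the 37 lay near the shares of all probesets. The median was -0.32 for the 37 and -0.01 for all probesets, and 9 of the 37 differences were positive. The run block kept SPRR2B alone (3.45% of all probesets higher), and with the runs as the samples 0 genes passed (1.17% higher, 1.53% lower).

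**Figure D2:**
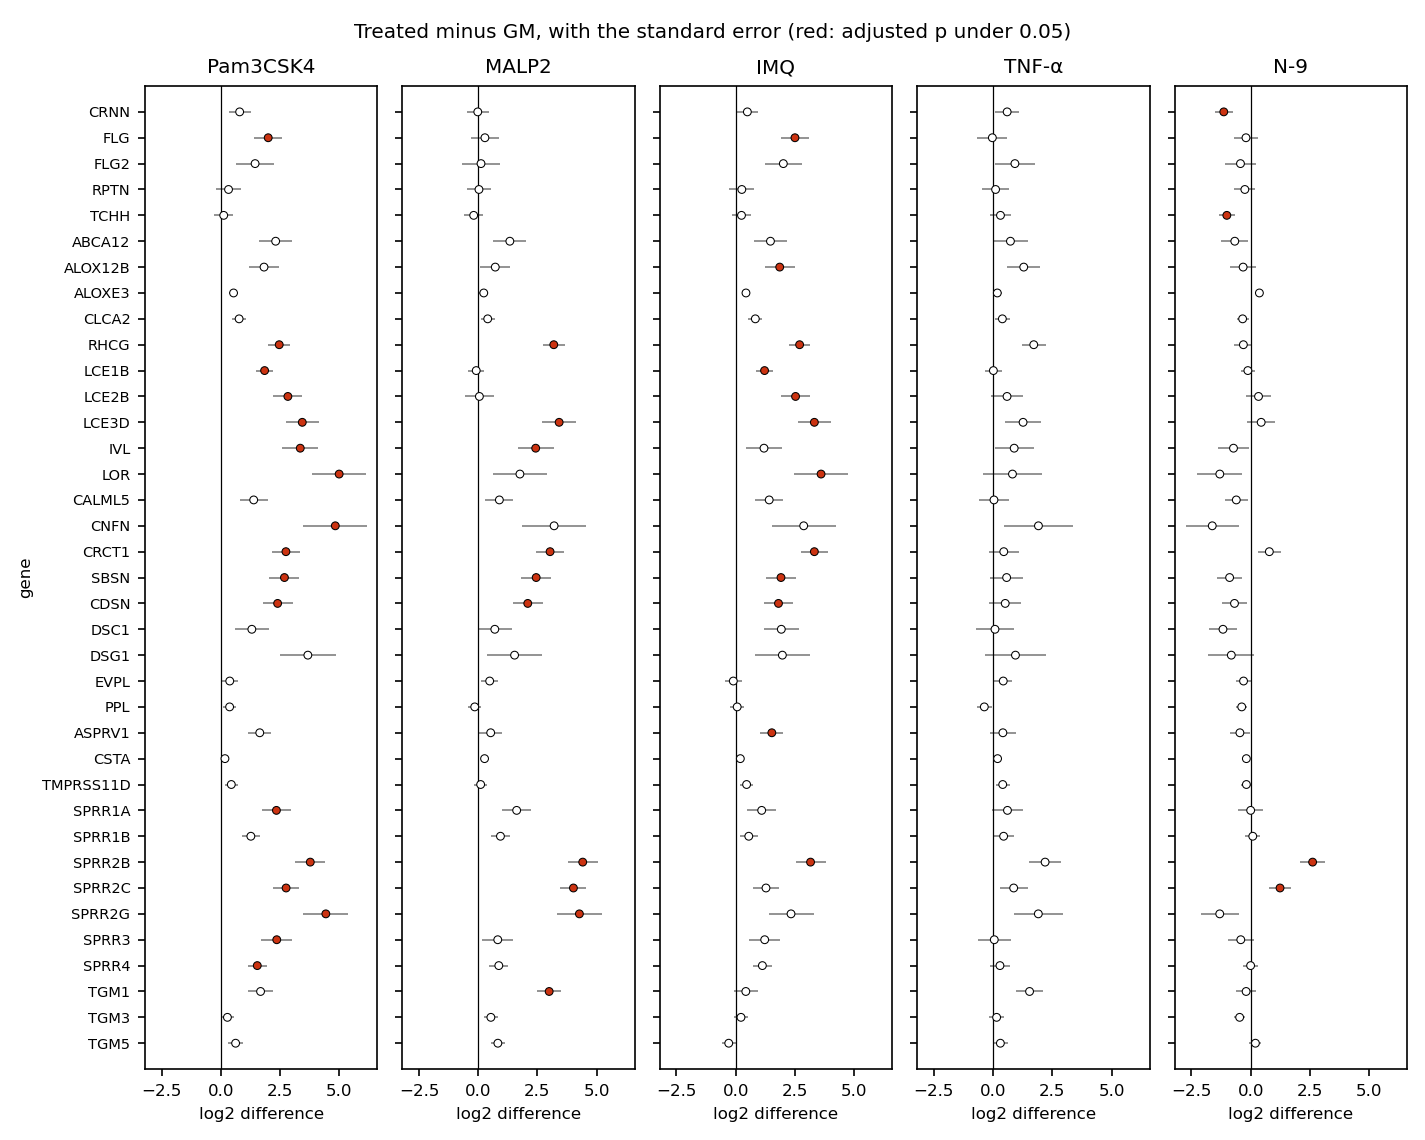
Each panel shows, for 1 PIC, the log2 difference of the group mean from GM (horizontal axis) for the 37 genes, with bars for the standard error and red points for an adjusted p under 0.05. The 17 red points of Pam3CSK4, 10 of MALP2 and 12 of imiquimod are all positive, TNF-α has none, and N-9 has 2 on each side.

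Loricrin and involucrin, the scaffold proteins of the envelope, both rose, and LOR had the largest change of the 37 genes with Pam3CSK4. In GM the lowest, median and highest log2 signals of LOR were 2.08, 4.91 and 13.45, and with Pam3CSK4 they were 8.09, 10.70 and 13.11. All 6 Pam3CSK4 arrays were above the GM median and none was above GM replicates 43 to 45, so the groups overlap. LOR rose by 5.00 ± 1.13 (SE) on the log2 scale with Pam3CSK4 (31.9-fold, adjusted p = 0.00414) and by 3.60 ± 1.13 with imiquimod (adjusted p = 0.0229). The run block ended the imiquimod call (adjusted p = 0.0729). The run means of LOR were 8.33 and 12.98 with Pam3CSK4, 5.42 and 13.10 with imiquimod, 4.07 and 10.77 with MALP2, and 3.74 and 10.57 with TNF-α. The second run was far higher in each of the 4 groups, and only that of Pam3CSK4 followed a first run near the top of the GM runs.

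Involucrin (IVL), an early substrate of the transglutaminases, had a lowest, median and highest log2 signal of 6.24, 9.26 and 14.20 in GM. The values were 11.93, 12.94 and 13.96 with Pam3CSK4 and 10.09, 12.14 and 13.65 with MALP2. Every array of these groups was above the GM median and below the 3 arrays of GM replicates 43 to 45. IVL rose by 3.35 ± 0.76 with Pam3CSK4 (10.2-fold, adjusted p = 0.00452) and by 2.42 ± 0.76 with MALP2 (adjusted p = 0.0336, or 0.0723 with the run block). With TNF-α the 5 arrays read 8.88, 8.80, 8.47, 13.11 and 13.13, so the first 3 were below the GM median and the other two far above it.

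The small proline-rich proteins, which bridge the other envelope proteins, held the gene that moved with most of the PICs. SPRR2B had a lowest, median and highest log2 signal of 6.35, 8.75 and 14.27 in GM, 12.64, 13.57 and 14.36 with MALP2, and 11.71, 12.87 and 14.09 with Pam3CSK4. With imiquimod they were 10.63, 12.41 and 13.68, and with N-9 they were 11.11, 11.69 and 12.55. All 27 arrays of these 4 groups were above the GM median, and those of MALP2 and Pam3CSK4 were above every GM array other than replicates 43 to 45. SPRR2B rose by 4.41 ± 0.63 with MALP2 (21.3-fold, adjusted p = 1.13e-07), 3.78 ± 0.63 with Pam3CSK4 (adjusted p = 2.42e-05), 3.16 ± 0.63 with imiquimod (adjusted p = 0.000112) and 2.62 ± 0.53 with N-9 (6.13-fold, adjusted p = 8.09e-05). All 4 calls held with the run block, the largest adjusted p being 0.000428, and none held with the runs as the samples (adjusted p between 0.0858 and 0.686). For SPRR2B 96.9% of the variance in GM lay between runs, so the block may correct too little here.

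SPRR2B was above at least 16 of the 18 GM runs in every run of these groups. Its run means were 10.95 and 13.61 with imiquimod, 12.75 and 14.31 with MALP2, 11.79 and 14.00 with Pam3CSK4, and 11.68, 12.20 and 11.33 with N-9, while the 17 GM runs other than replicates 43 to 45 reached at most 11.34. The N-9 runs lay close together, and N-9 was the group with the smallest spread of SPRR2B, at 11.74 ± 0.43 (SD, n = 9). With TNF-α the 5 arrays read 10.28, 10.24, 10.55, 12.77 and 12.73, all above the GM median, with a difference of 2.19 ± 0.69 and an adjusted p of 0.138. Without GM replicates 43 to 45 that difference was 2.50 with an adjusted p of 0.0048. SPRR2B was highest among the GM runs in those arrays, so leaving them out enlarges the difference. The probesets of SPRR2B and SPRR1A carry a suffix for probes that may match other sequences, so near-identical family members may add to their signals. The study also lists SPRR2B among the genes it selected on these same arrays, so its direction here is not independent evidence. It counts SPRR2B as raised by every PIC, TNF-α among them, from an analysis of variance with a fold limit. Here the TNF-α difference did not pass with all GM arrays.

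SPRR2C, a transcribed relative of SPRR2B, had a lowest, median and highest signal of 2.81, 6.12 and 8.78 in GM, 8.33, 10.20 and 11.25 with MALP2, and 7.22, 8.63 and 10.11 with Pam3CSK4. All 12 treated arrays were above the GM median, and 4 of the MALP2 arrays and 3 of the Pam3CSK4 arrays were above all GM arrays. SPRR2C rose by 4.02 ± 0.55 with MALP2 (16.2-fold, adjusted p = 2.33e-08), which held with the run block (adjusted p = 7.32e-05) and with the runs as the samples (adjusted p = 0.0146). It rose by 2.76 ± 0.55 with Pam3CSK4 (adjusted p = 0.000685, or 0.0533 with the run block). With N-9 its 9 arrays lay between 6.54 and 8.30, all above the GM median, and it rose by 1.24 ± 0.46 (adjusted p = 0.0471, or 0.258 with the run block).

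SPRR2G had a lowest, median and highest signal of 4.23, 6.90 and 14.36 in GM, 9.44, 11.80 and 13.81 with Pam3CSK4, and 9.20, 11.70 and 13.62 with MALP2. All 12 treated arrays were above the GM median and below the highest GM array. SPRR2G rose by 4.43 ± 0.95 with Pam3CSK4 (21.6-fold, adjusted p = 0.00213) and by 4.27 ± 0.95 with MALP2 (adjusted p = 0.000935). It was low with N-9, where the run means were 6.45, 6.46 and 5.08.

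The other small proline-rich genes changed less. SPRR1A rose by 2.35 ± 0.61 with Pam3CSK4 (adjusted p = 0.0187), with 6 arrays between 13.27 and 14.47 against 8.56 to 14.85 in GM. SPRR3 rose by 2.36 ± 0.65 (adjusted p = 0.028), with arrays between 11.86 and 14.45 against 8.38 to 14.61 in GM. SPRR4 rose by 1.54 ± 0.40 (adjusted p = 0.0162), with arrays between 8.64 and 11.10 against 7.19 to 11.43 in GM. None of the 3 passed with the run block (adjusted p = 0.064, 0.111 and 0.127). The second probesets disagreed in part. That of SPRR3 passed with MALP2 (2.89, adjusted p = 0.000953) and imiquimod (2.04, adjusted p = 0.0243), where the brightest did not (0.82 and 1.22), and that of SPRR1A passed with MALP2 (2.30, adjusted p = 0.0329). The second SPRR3 probeset carries the suffix for probes that may match other sequences. The brightest SPRR3 probeset carries a suffix for probes shared by several transcripts, as do those of SPRR2G, LCE3D and CNFN. Related transcripts may therefore add to the signal of any of these probesets. SPRR1B, at 13.32 ± 1.02 (SD, n = 53) in GM, passed in no treatment when all arrays were used. Its Pam3CSK4 runs, at 14.40 and 14.78, lay near the top of the signal range, where a rise may show less.

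**Figure D3:**
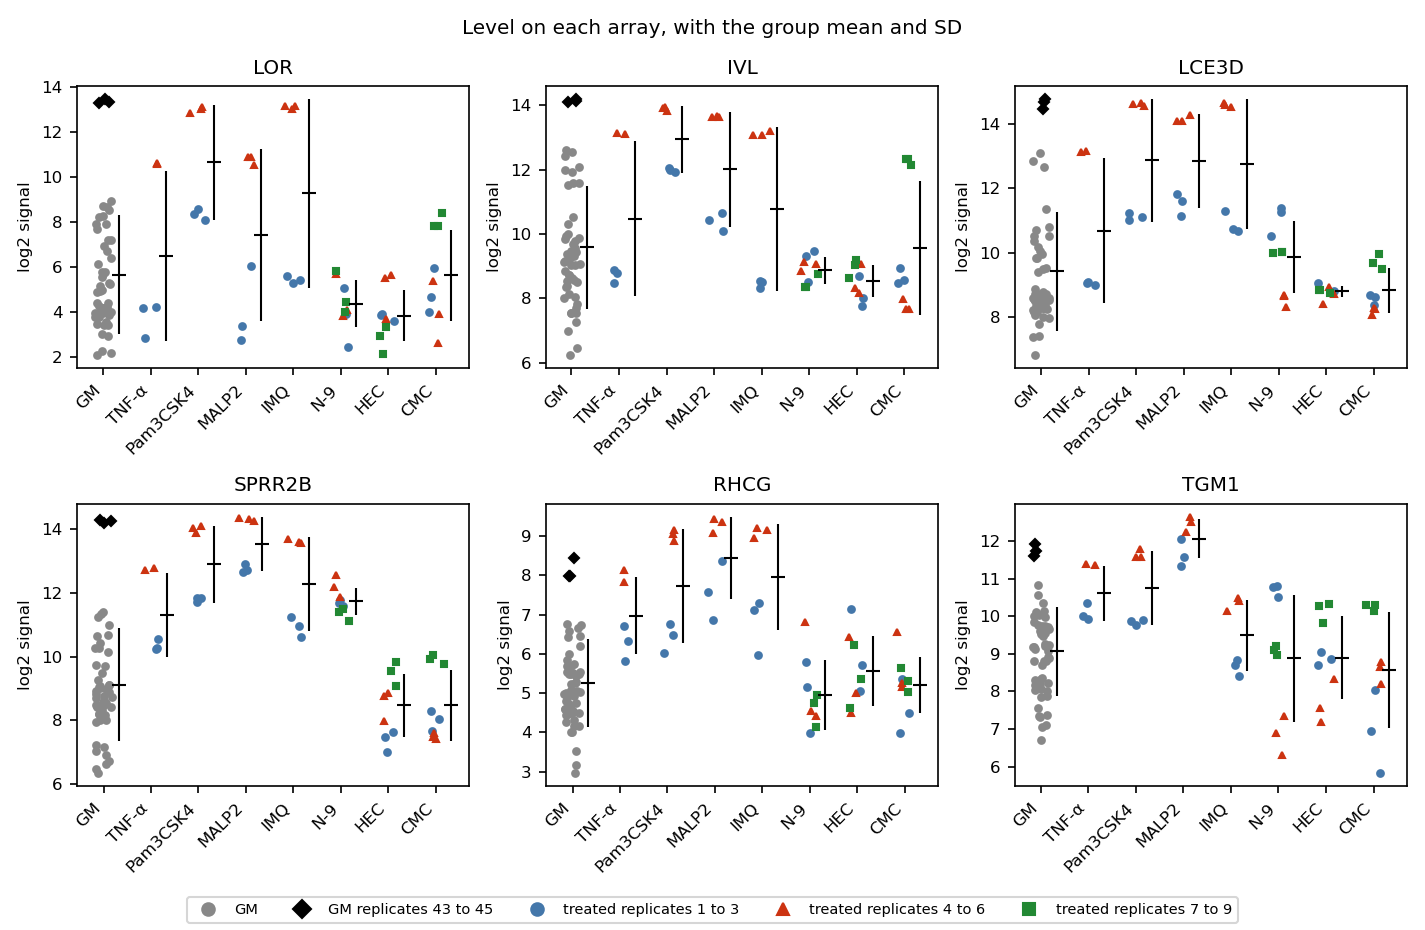
Log2 signal of LOR, IVL, LCE3D, SPRR2B, RHCG and TGM1 on every array, by group, with symbols for GM replicates 43 to 45 and for treated replicates 1 to 3, 4 to 6 and 7 to 9, and with the group mean and SD beside them. LOR has its highest values in GM replicates 43 to 45 and in the later replicates of Pam3CSK4, imiquimod, MALP2 and TNF-α, with a mean of 8.33 in the first Pam3CSK4 run. SPRR2B lies above the GM median on all arrays of these 4 groups and of N-9.

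The late cornified envelope genes, which are expressed near the surface of the epidermis, differed among themselves. LCE3D had a lowest, median and highest signal of 6.82, 8.67 and 14.77 in GM. They were 11.02, 12.89 and 14.64 with Pam3CSK4, 11.12, 12.95 and 14.27 with MALP2, and 10.67, 12.90 and 14.64 with imiquimod. All 18 arrays were above the GM median, and both runs of each group were above at least 16 of the 18 GM runs. LCE3D rose by 3.44 ± 0.70 (adjusted p = 0.0011), 3.41 ± 0.70 (adjusted p = 0.000303) and 3.32 ± 0.70 (adjusted p = 0.000282). The 3 calls held with the run block, and none held with the runs as the samples.

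LCE1B and LCE2B followed another course. LCE1B had a lowest, median and highest signal of 4.77, 7.05 and 9.22 in GM, 6.73, 9.06 and 10.86 with Pam3CSK4, and 6.59, 8.51 and 9.47 with imiquimod. Its run means were 7.16 and 10.73 with Pam3CSK4 and 7.16 and 9.46 with imiquimod, but 6.77 and 7.25 with MALP2 and 7.04 and 7.20 with TNF-α. The second runs of Pam3CSK4 and imiquimod were the highest, above the 9.11 of GM replicates 43 to 45, and those of MALP2 and TNF-α were not raised. LCE1B rose by 1.85 ± 0.34 with Pam3CSK4 (adjusted p = 0.000198, or 0.0114 with the run block) and by 1.22 ± 0.34 with imiquimod (adjusted p = 0.00941, or 0.0789). LCE2B rose by 2.83 ± 0.61 with Pam3CSK4 (adjusted p = 0.00229, or 0.0681 with the run block) and by 2.53 ± 0.61 with imiquimod (adjusted p = 0.00174, or 0.0329). Its second-run means were 10.44 with Pam3CSK4, 8.94 with imiquimod, 6.02 with MALP2 and 5.75 with TNF-α.

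Among the S100 fused-type proteins, only filaggrin (FLG), which aggregates keratin filaments, passed as higher when all arrays were used. FLG2 averaged 5.04 with imiquimod against 3.03 in GM and did not pass. With imiquimod replicates 4 to 6 alone FLG2 and CRNN also passed as higher, and FLG2 did with imiquimod when GM replicates 43 to 45 were left out. FLG had a lowest, median and highest signal of 3.56, 5.20 and 11.08 in GM, 6.15, 7.96 and 9.67 with imiquimod, and 5.30, 7.58 and 9.39 with Pam3CSK4. All 12 arrays were above the GM median. FLG rose by 2.50 ± 0.58 with imiquimod (5.66-fold, adjusted p = 0.00114) and by 2.00 ± 0.58 with Pam3CSK4 (adjusted p = 0.044, or 0.174 with the run block). Its second-run means were 9.56 with imiquimod and 9.24 with Pam3CSK4, but 6.74 with MALP2 and 6.34 with TNF-α.

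Cornulin (CRNN) is a marker of wet squamous epithelium, and trichohyalin (TCHH) is a keratin-associated protein of hair follicles and tongue. They were the only envelope genes that passed as lower when all arrays were used. CRNN had a lowest, median and highest signal of 3.42, 4.93 and 6.59 with N-9, against 2.96, 6.15 and 8.55 in GM. TCHH had 3.68, 5.55 and 7.13, against 2.79, 6.69 and 8.56. For each gene 1 of the 9 arrays was above the GM median. CRNN fell by 1.13 ± 0.39 (adjusted p = 0.0289, or 0.202 with the run block) and TCHH fell by 1.01 ± 0.33 (adjusted p = 0.0233, or 0.18). The first N-9 run was the lowest, with means of 3.91 for CRNN and 4.86 for TCHH.

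The enzymes and the surface proteins held the other genes that were raised in both runs. TGM1, the transglutaminase of the keratinocyte membrane, had a lowest, median and highest signal of 11.33, 12.15 and 12.65 with MALP2 and of 6.70, 9.17 and 11.92 in GM. All 6 arrays were above every GM array other than replicates 43 to 45, with run means of 11.65 and 12.47. TGM1 rose by 2.99 ± 0.51 with MALP2 (7.96-fold, adjusted p = 9.06e-06, or 0.000102 with the run block and 0.209 with the runs as the samples). With N-9 its run means were 10.70, 6.84 and 9.09, so the arrays were split and no change was called. TGM3 and TGM5 passed in no treatment when all arrays were used.

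RHCG, an ammonium transporter of squamous epithelia, had a lowest, median and highest signal of 2.97, 5.07 and 8.44 in GM. They were 6.85, 8.72 and 9.43 with MALP2, 5.98, 8.12 and 9.21 with imiquimod, and 6.02, 7.82 and 9.16 with Pam3CSK4. All 18 arrays were above the GM median, and both runs of each group were above at least 17 of the 18 GM runs. RHCG rose by 3.19 ± 0.46 with MALP2 (9.11-fold, adjusted p = 1.17e-07), 2.70 ± 0.46 with imiquimod (adjusted p = 4.33e-06) and 2.47 ± 0.46 with Pam3CSK4 (adjusted p = 0.000208). The run block kept all 3, and the runs as the samples kept MALP2 (adjusted p = 0.019) and imiquimod (adjusted p = 0.039) but not Pam3CSK4 (adjusted p = 0.471). With TNF-α the 5 arrays read 6.72, 6.34, 5.82, 8.12 and 7.84, all above the GM median, with a difference of 1.71 ± 0.50 (adjusted p = 0.0856, or 0.0123 without GM replicates 43 to 45).

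CRCT1, a cysteine-rich gene of the same chromosomal region, had a lowest, median and highest signal of 5.61, 7.47 and 12.48 in GM. They were 9.89, 11.18 and 12.34 with imiquimod, 9.53, 10.86 and 12.19 with MALP2, and 8.68, 10.64 and 12.38 with Pam3CSK4. CRCT1 rose by 3.32 ± 0.58 (9.98-fold, adjusted p = 8.62e-06), 3.03 ± 0.58 (adjusted p = 8.93e-05) and 2.75 ± 0.58 (adjusted p = 0.00185). All 3 calls held with the run block, and none held with the runs as the samples. All 18 arrays were above the GM median. Suprabasin (SBSN), a secreted protein of the suprabasal layers, had 6.58, 8.25 and 13.48 in GM and rose by 2.69 ± 0.63 with Pam3CSK4 (adjusted p = 0.00713), 2.44 ± 0.63 with MALP2 (adjusted p = 0.00614) and 1.91 ± 0.63 with imiquimod (adjusted p = 0.0348, or 0.0751 with the run block). Its imiquimod runs read 8.73 and 12.59, the first of them at the GM mean.

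Corneodesmosin (CDSN), the adhesive protein of the outermost desmosomes, had a lowest, median and highest signal of 3.48, 5.19 and 10.55 in GM and of 5.16, 8.44 and 9.87 with Pam3CSK4. It rose by 2.40 ± 0.63 with Pam3CSK4 (adjusted p = 0.0191), 2.09 ± 0.63 with MALP2 (adjusted p = 0.024) and 1.80 ± 0.63 with imiquimod (adjusted p = 0.0472). None of the 3 held with the run block (adjusted p = 0.168, 0.145 and 0.204), and its dimmer probeset passed with Pam3CSK4 only (3.34, adjusted p = 0.0401). Cornifelin (CNFN), an envelope protein, had the widest spread in GM, from 1.93 to 13.87 with a median of 5.05. It lay between 7.64 and 13.07 with Pam3CSK4, with a median of 10.36, and rose by 4.83 ± 1.35 (28.5-fold, adjusted p = 0.0317, or 0.155 with the run block).

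When all arrays were used, imiquimod alone passed the test for the lipoxygenase ALOX12B and the protease ASPRV1. The first oxidises ceramide lipids for the barrier, and the second cleaves filaggrin. ALOX12B lay between 3.38 and 7.85 with imiquimod, with a median of 6.49, against 1.25 to 9.24 in GM with a median of 3.92, and rose by 1.86 ± 0.64 (adjusted p = 0.045, or 0.193 with the run block). ASPRV1 lay between 7.22 and 11.72 with a median of 9.69, against 6.96 to 12.47 with a median of 7.81, and rose by 1.52 ± 0.49 (adjusted p = 0.028, or 0.0617). With Pam3CSK4 the differences were as large, at 1.82 and 1.64, and neither gene differed between the compounds at an adjusted p under 0.05. ASPRV1 was flat over the GM runs other than replicates 43 to 45, whose means stayed at or under 8.39, and then read 12.41 in those replicates.

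The remaining 15 genes passed in no treatment when all arrays were used. Cystatin A (CSTA), a protease inhibitor, was at 14.31 ± 0.30 in GM, CLCA2 at 12.09 ± 0.85, and the plakin PPL at 10.58 ± 0.72 (SD, n = 53). The desmosomal cadherin DSG1 had a difference of 3.67 with Pam3CSK4 that did not pass: its GM arrays ran from 1.12 to 11.87 and its run means were 7.04 and 10.34. With replicates 4 to 6 alone DSG1 passed as higher with Pam3CSK4, MALP2 and imiquimod.

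**Figure D4:**
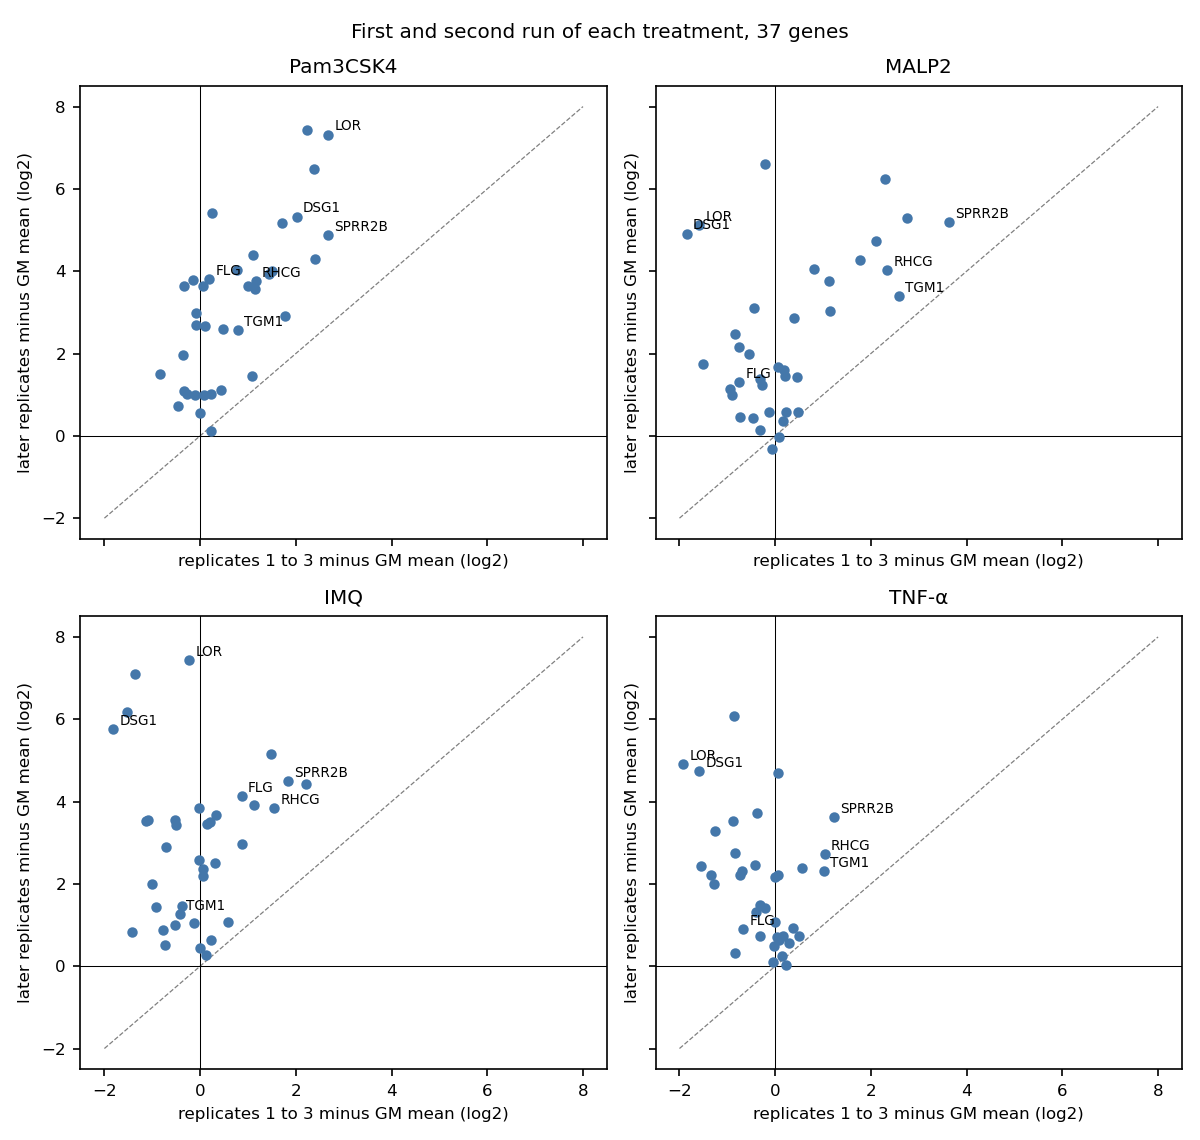
For 37 genes, the mean of replicates 1 to 3 minus the GM mean (horizontal axis) is plotted against the same for replicates 4 to 6, or 4 and 5 for TNF-α (vertical axis), on the log2 scale, with 1 panel per compound and a dashed line of equality. Nearly all points lie above the line, LOR and DSG1 lie at or left of 0 with MALP2, imiquimod and TNF-α, and SPRR2B and RHCG lie right of 0 in all 4 panels.

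TNF-α, which acts through its own receptor and NFκB, changed 0 of the 37 genes past the threshold, against 0.527% of all probesets higher and 0.192% lower. The median difference was 0.45 for the 37 and 0.01 for all probesets, and 35 were positive. At an unadjusted p under 0.05 limma gave 3 genes (SPRR2B, RHCG and TGM1), but no share of all probesets is given for that threshold. The analysis of variance with the fold limit of the methods gave 7. Its p-value comes from 1 test over all 8 groups, so it does not test TNF-α against GM, and only the fold refers to that pair. No share of all probesets is given for it either. Without GM replicates 43 to 45 limma passed SPRR2B and RHCG (0.527% of all probesets higher). Both genes were highest among the GM runs in those arrays, so this setting favours a rise.

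With the NIC gels HEC and CMC 0 genes passed each. For HEC the background was 0.328% of all probesets higher and 0.465% lower, and for CMC it was 0% and 0.00183%. The median differences were -0.53 with HEC and -0.23 with CMC, against 0.00 and 0.01 for all probesets, and 7 and 8 of the 37 were positive. At an unadjusted p under 0.05 limma gave 6 genes with HEC and 0 with CMC, again with no share of all probesets given for that threshold. The methods' analysis of variance gave 9 and 2, all lower, but its p-value tests neither gel against GM and only the fold does. No share of all probesets is given for it, so these counts have no background to be set against. With the 3 runs of HEC or CMC taken one at a time, TGM3 was lower in the first run of HEC (3.01% of all probesets lower), ABCA12 in the second (9.23%), and TCHH and TGM1 in the first of CMC (9.16%).

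Whether the compounds differed from each other was tested in the same fit, with p-values adjusted over all probesets. Pam3CSK4 exceeded N-9 for 20 of the 37 genes and was lower for 0, against 6.31% of all probesets higher and 5.03% lower. The median difference was 1.97 for the 37 and 0.00 for all probesets. The largest were CNFN (6.45 ± 1.65, adjusted p = 0.00389), LOR (6.30 ± 1.38, adjusted p = 0.000628) and SPRR2G (5.74 ± 1.16, adjusted p = 0.000193). SPRR2B was not among the 20, with a difference of 1.16 (95% interval -0.38 to 2.70). With the run block 11 genes passed (2.65% of all probesets), and with the runs as the samples 0 did (0.112%). The doses and the chemistry of the pair differ.

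Pam3CSK4 differed from MALP2 for 1 gene, against 0.112% of all probesets higher and 0.0989% lower. LCE1B was at 8.94 with Pam3CSK4 and 7.01 with MALP2, a difference of 1.93 (95% interval 1.02 to 2.85, adjusted p = 0.0336), which the run block ended (adjusted p = 0.49). Leaving out Pam3CSK4 replicate 4, 5 or 6 or MALP2 replicate 1, 2 or 5 also ended it. The lipopeptides differ in the number of fatty acids and were given at different doses, so these values stand side by side only. Against imiquimod 0 genes passed, with a median difference of 0.31, and 1.74% of all probesets passed as higher and 1.28% as lower. Against TNF-α 0 genes passed, with a median of 1.25, and 0% of all probesets did. At an unadjusted p under 0.05 limma gave 3 genes against imiquimod and 13 against TNF-α, but no share of all probesets is given for that threshold.

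HEC and CMC are both cellulose ethers, with hydroxyethyl and carboxymethyl groups, and their dose and time were equal. Of the 37 genes 0 differed between them (0% of all probesets), and 1, TGM3, had an unadjusted p under 0.05, with a difference of -0.69 (95% interval -1.32 to -0.07, adjusted p = 0.663). The intervals leave room for sizeable differences, as for LOR at -1.78 (-4.24 to 0.67) and CNFN at -1.15 (-4.08 to 1.77). For CSTA the interval was narrow, at -0.13 (-0.38 to 0.12), though its signal lay near the top of the range, where differences may show less.

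Genes of the same program outside the set moved in part with it. Of 44 other barrier genes listed, 28 had a probeset, and Pam3CSK4 raised 6 (against 1.31% of all probesets), MALP2 4 (3.28%), imiquimod 6 (4.68%) and the other 4 treatments 0 (7.34% with N-9). The largest with Pam3CSK4 were the short-chain dehydrogenase SDR9C7 (2.66 ± 0.79, adjusted p = 0.0489), the elastase inhibitor PI3 (1.89 ± 0.52, adjusted p = 0.0308) and the cystatin CST6 (1.49 ± 0.42, adjusted p = 0.0364). None of these 3 passed with the run block (adjusted p = 0.363, 0.104 and 0.168). PI3 was even across the Pam3CSK4 runs, at 14.16 and 14.15, unlike LOR. Both values lay near the top of the signal range, where a difference between runs may not show.

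Of 16 keratins listed 13 had a probeset. Pam3CSK4 raised KRT1, the keratin of the spinous layer, by 3.31 ± 0.94 (adjusted p = 0.0363, or 0.141 with the run block) and KRT23 by 3.03 ± 0.82 (adjusted p = 0.0259, or 0.14). These are 2 of the 13, against 1.31% of all probesets higher. KRT1 was at 8.19 over GM, 14.28 in GM replicates 43 to 45, and 9.09 and 13.90 in the Pam3CSK4 runs. The basal keratins were level, with KRT5 at 14.47 and KRT14 at 14.73 in GM replicates 43 to 45. Their GM means were at percentiles 99.7 and 99.8 of level, so a further rise may not show. MALP2 raised KRT23 alone (2.53, adjusted p = 0.0428, or 0.153 with the run block), and TNF-α lowered KRT15 alone, which fell by 1.98 (adjusted p = 0.00374). Of all probesets 3.28% were higher with MALP2 and 0.192% lower with TNF-α.

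Regulators of epithelial differentiation were listed as well. Of 20 listed 17 had a probeset, and their median differences were 0.41 (imiquimod), 0.44 (N-9), 0.48 (MALP2) and 0.55 (Pam3CSK4). N-9 raised 6 and lowered 1 (against 7.34% and 10.1% of all probesets), MALP2 6 and 1 (3.28% and 3.68%), imiquimod 3 and 2 (4.68% and 6.19%), and Pam3CSK4 1 and 0 (1.31% and 0.859%). TNF-α raised 1 and lowered 0 (0.527% and 0.192%), HEC 0 and 1 (0.328% and 0.465%), and CMC 0 and 0 (0% and 0.00183%). Pam3CSK4 raised POU2F3, an epidermal POU factor, by 2.14 ± 0.60 (adjusted p = 0.0349, or 0.342 with the run block).

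In GM replicates 43 to 45 these lists were high as well. There 23 of the 28 other barrier genes, 11 of the 17 regulators and 6 of the 13 keratins had their highest mean of the GM runs, against the 6.31% of all probesets. Of the other cell types' lists, 0 of 4 leukocyte, 1 of 6 stromal and 0 of 3 melanocyte markers did.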

How the data were processed

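The authors deposited log2 values for 105 arrays, with 1 signal per probeset and array. MAS5 and GCOS 1.3 are named in the notes of the submitters on processing, while the paper's methods describe RMA. If MAS5 made the values, signals of dim probesets are noisy, and the folds of dim genes with them.

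The values of 103 arrays were quantile normalized, and 54613 probesets (all but 62 control probesets) were fitted in limma 3.58.1 (R 4.3.3, package data.table, version 1.17.8) with 1 mean per group and Benjamini-Hochberg adjustment per comparison. A gene passed at an adjusted p under 0.05 and was called if its fold was also above 2. Full values are given for members called in at least 1 treatment, and other genes by lists. Gene names came from the annotation of the array, which gives 41097 probesets 1 gene and 1801 several and does not list 11777. The runs of 3 replicate numbers were used as a random block (duplicateCorrelation, consensus correlation 0.438) or averaged as the samples. The block takes this 1 correlation for all probesets, which may be too low for the envelope genes. Other alternatives were an offset of 16, a filter at a mean of 7, no quantile normalization, all arrays, same-numbered GM arrays and the methods' analysis of variance. The code was tested on simulated data. The members and lists were chosen with earlier results of these data known.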

Additional observations from a re-analysis of the deposited data

Results flagged for a closer look

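The difference between treatments passed the test for 21 comparisons of a gene. LCE1B was higher with Pam3CSK4 than with MALP2 by 1.93 on the log2 scale. The other 20 were higher with Pam3CSK4 than with N-9. With the run block 11 of these 20 passed and the LCE1B difference from MALP2 did not (adjusted p = 0.49). With the runs as the samples none of the 21 passed.

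The scaffold, desmosomal and surface genes differed from N-9 by 6.30 (LOR), 4.08 (IVL), 6.45 (CNFN), 3.57 (SBSN), 3.08 (CDSN) and 4.49 (DSG1). The S100 fused-type genes FLG and CRNN differed by 2.20 and 1.93. Of the small proline-rich genes, SPRR1A differed by 2.35, SPRR2G by 5.74, SPRR3 by 2.78 and SPRR4 by 1.54. LCE1B, LCE2B and LCE3D differed by 1.97, 2.50 and 2.99. Of the other enzyme, transport and surface genes, RHCG differed by 2.77, TGM1 by 1.87, ABCA12 by 2.99, ASPRV1 by 2.10 and CLCA2 by 1.11.

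No array stood alone in the 43 called combinations of gene and treatment that were checked.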

How the results depend on the processing

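The counts of passing genes depended on the runs. The settings without GM replicates 43 to 45, with runs averaged, and with 1 run of a treatment were chosen after seeing the data. The random block of runs left 9 for Pam3CSK4, 6 for imiquimod, 1 for N-9, 0 for Pam3CSK4 against MALP2 and 11 against N-9, and averaged runs gave 0, 1, 0, 0 and 0, and 2 for MALP2. Without GM replicates 43 to 45 they were 2 for TNF-α and 19 for imiquimod. With treated replicates 1 to 3 they were 0 for Pam3CSK4, 4 for MALP2, and 1, 1 and 2, all lower, for imiquimod, HEC and CMC, with replicates 4 to 6 19 for MALP2, 24 for imiquimod and 1 (lower) for HEC, and with replicates 7 to 9 0 for N-9. On replicates 1 to 3 of imiquimod the differences of LOR (-0.23), SBSN (-0.022) and ASPRV1 (-0.51) turned negative. The methods' analysis of variance gave 7 for TNF-α, 23 for imiquimod, 9 for HEC and 2 for CMC, the last pair lower. Its p-value is that of 1 test over all 8 groups, and only the fold is that of the treatment against GM. No quantile normalization or the filter on dim probesets each gave 2 for N-9, the filter 13 for Pam3CSK4 against N-9, and for Pam3CSK4 against MALP2 the offset gave 2 and all arrays 0. Leaving out 1 array gave 9 to 20 for Pam3CSK4, 6 to 14 for imiquimod, 0 to 1 for Pam3CSK4 against MALP2 and 10 to 24 against N-9. No share of all probesets is given for the analysis of variance, for fits without 1 array or for same-numbered GM arrays. The same holds for the settings of normalization, offset, filter and all arrays. These counts show only how far the result depends on the setting. Except where a run is left out or averaged by construction, the cause was not tested. The numbers were not taken to pair the arrays, since in no treatment did every same-numbered treated and GM array correlate above 0.1 in their deviations (range -0.23 to 0.31), though 6 of 9 did for N-9 and 6 of 9 for HEC. With the replicate block N-9 kept a count of 4 and HEC of 0. Same-numbered GM arrays alone gave 1 gene for TNF-α, and with that block 30 of the 43 gene calls against GM held. Both settings use no GM replicate above 9. They thus leave out GM replicates 43 to 45, which favours a rise.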
